A study of Mus musculus with 10 samples.

Results

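The 37 genes described here are known for their use in endothelium, the cell layer that lines blood and lymphatic vessels. They were chosen by name from a table of 47729 genes, and all 37 were found in it by symbol and passed the filter on low counts, among 20562 genes that did. RNA was sequenced from forelimb buds of 10 mouse embryos at embryonic day 11.5 to 12, in a study of the CpG-binding protein CXXC1, a subunit of the complexes that methylate histone H3 at lysine 4. Each of the 5 knockouts carried Prx1Cre, a Cre recombinase driven by an enhancer of Prrx1, and floxed Cxxc1 on both alleles. Of the 5 controls, control 1 carried Prx1Cre with 1 floxed and 1 wild-type allele of Cxxc1, controls 2 and 4 carried no Cre and 1 floxed allele, and control 3 carried no Cre and floxed alleles on both chromosomes. Control 5 also had floxed alleles on both chromosomes, and its label puts a question mark after Prx1Cre. All 10 embryos thus carried at least 1 floxed allele. Of 4 litters, A supplied 2 embryos to either group and the others 1, at 49 to 51 somites in both groups. Prx1Cre is known to act in limb mesenchyme, which comes from lateral plate mesoderm, while limb endothelium comes largely from the somites, and recombination in endothelial cells was not measured here.

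Endothelial cells hold together through VE-cadherin and other junction proteins, and they respond to VEGF through the receptor tyrosine kinases KDR, FLT1 and FLT4. A further receptor, TEK, whose partner is TIE1, reads the angiopoietins. ANGPT1 from surrounding cells activates TEK, and ANGPT2 from endothelium acts against this in many settings. In the limb bud, mesenchyme and other cells around the vessels secrete VEGFA, a plexus of small vessels covers the bud early, and vessels withdraw from the sites where cartilage condenses. ETS factors such as FLI1 and ERG, the SOXF factors SOX7, SOX17 and SOX18, and TAL1 with LYL1 drive endothelial transcription, and PROX1 sets the lymphatic fate.

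Each library held 33274911 to 49880815 estimated counts. Cxxc1 itself, counted over the whole gene, was 75.2 ± 1.23 CPM in knockouts and 96.7 ± 6.88 CPM in controls (SD, n = 5 each; log2 fold change -0.36, SE 0.05, edgeR adjusted p = 0.000144), a check that covers cells outside the reach of the Cre as well. The forelimb marker Tbx5 was at 88.1 and 188 CPM in knockouts and controls, above the hindlimb markers Tbx4 (11.9 and 11.4 CPM) and Pitx1 (0.972 and 1.25 CPM). Xist, the RNA of the inactive X chromosome, was high in control 1 and knockout 3 only of the 10 libraries. Levels are CPM, the counts scaled to library size with the TMM factor. A gene is called where edgeR's quasi-likelihood test, knockout against control, gives a Benjamini-Hochberg adjusted p below 0.05 over all 20562 genes, and this value is written below as the edgeR adjusted p. The labels mark each library as a separate embryo, so p-values measure the spread between these 10 embryos.

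Sequences before the transcription start could be matched by symbol for 19 of the 37 genes (RefSeq, GRCm38.p6). The 250 bases before the start are printed for 4 of them, to show the DNA next to genes whose levels are given below: Kdr, Tek and Emcn, which were higher in knockouts, and Apln, which was lower. Capitals mark GGAA, the core that ETS factors bind, and its complement TTCC, found on both strands. The windows are chr5:75978456-75978705, minus strand, for Kdr; chr4:94739039-94739288, plus strand, for Tek; chr3:137340828-137341077, plus strand, for Emcn; and chrX:48034854-48035103, minus strand, for Apln.
Kdr: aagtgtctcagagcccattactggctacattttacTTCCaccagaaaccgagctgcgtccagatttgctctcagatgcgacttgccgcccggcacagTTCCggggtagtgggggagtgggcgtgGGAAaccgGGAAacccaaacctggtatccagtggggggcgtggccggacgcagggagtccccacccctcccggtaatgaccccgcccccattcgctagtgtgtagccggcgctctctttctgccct
Tek: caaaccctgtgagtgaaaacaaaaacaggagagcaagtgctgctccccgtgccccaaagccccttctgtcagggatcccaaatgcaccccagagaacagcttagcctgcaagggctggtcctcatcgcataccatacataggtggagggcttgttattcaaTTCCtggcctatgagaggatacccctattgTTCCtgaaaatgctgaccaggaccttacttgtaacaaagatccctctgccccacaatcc
Emcn: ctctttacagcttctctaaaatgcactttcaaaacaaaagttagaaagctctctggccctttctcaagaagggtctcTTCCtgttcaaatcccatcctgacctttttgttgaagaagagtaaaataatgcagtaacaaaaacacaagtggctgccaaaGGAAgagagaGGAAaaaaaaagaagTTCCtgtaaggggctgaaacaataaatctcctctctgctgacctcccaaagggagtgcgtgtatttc
Apln: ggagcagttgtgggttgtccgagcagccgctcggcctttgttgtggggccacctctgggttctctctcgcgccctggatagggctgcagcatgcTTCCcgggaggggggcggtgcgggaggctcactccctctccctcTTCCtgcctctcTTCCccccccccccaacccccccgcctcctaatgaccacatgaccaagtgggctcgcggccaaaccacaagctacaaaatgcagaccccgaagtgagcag
GGAA occurred 4 times before Kdr, 2 times before Tek, 4 times before Emcn and 3 times before Apln. Of 24 windows of the 19 genes, 23 (95.8%) held GGAA, as did 93.4% of all 32851 windows of the same length. The longer CAGGAA, which contains GGAA and was picked after several motifs had been counted, was in 13 of 24 windows (54.2%) and in 25.7% of all windows. GATAA, the core of GATA factor sites, was in 3 of 24 (12.5%) and in 22.6% of all. These are matches of letters, and binding was not measured.

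Endothelial genes called in knockouts were mostly higher, by small amounts, while transcripts of VEGFA, apelin, ESM1 and FLI1 were lower. Of the 37 genes, 18 were called higher (48.6%), 4 were called lower (10.8%) and 15 were not called. Among all genes tested, 18.1% were called higher and 17.1% lower, 35.2% either way. The median log2 fold change, knockout over control, was 0.29 over the 37 genes and -0.000872 over all genes tested. In 12 of the 37 (32.4%) every knockout lay above every control, and in 3 (8.11%) every knockout lay below every control, against 13.0% and 12.4% of all genes. Of the 18 genes called higher, 11 differed by less than 1.5-fold and 7 by 1.5-fold or more (8.83% of all genes were called higher by that much), and Angpt2 differed the most, by 3.66-fold. In 24 of the 37 (64.9%) the difference had 1 sign in all 4 litters, which was so for 46.8% of all genes. In a bulk sample, more cells of a type and more RNA per cell cannot be told apart. CPM is a share of the library, so less RNA from other cells cannot be told apart from these either.

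**Figure D1:**
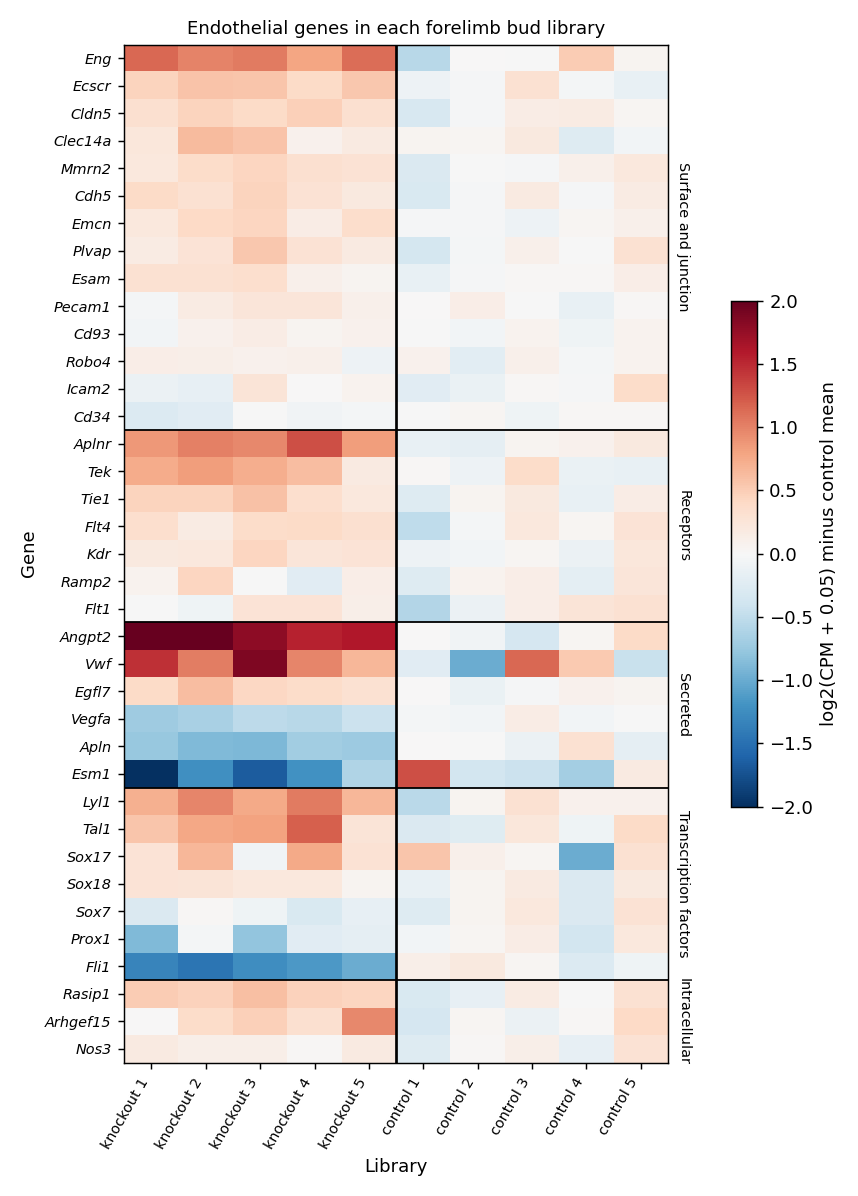
Level of each of the 37 genes in each library, as log2(CPM + 0.05) minus the mean of the 5 controls, with knockouts left of the line and controls right of it, and genes grouped by role. Colours end at 2 and -2. Eng, Aplnr and Angpt2 are higher and Vegfa, Apln and Fli1 lower in all 5 knockouts than in all 5 controls.

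Among 14 surface and junction genes, 8 were called higher and 6 were not called, with a median log2 fold change of 0.29. Cdh5 encodes VE-cadherin, the cadherin of endothelial junctions (chromosome 8, 104101625 to 104144511, plus strand, GRCm38). It was at 84.6, 80.3, 88.3, 79.2 and 74.2 CPM in knockouts 1 to 5, against 52.8, 63.9, 73.9, 64.1 and 72.6 CPM in controls 1 to 5. Every knockout was above every control, with 1.24-fold the control level (log2 fold change 0.31, SE 0.08, edgeR adjusted p = 0.0122), and differences within litters of 0.03 to 0.50. Pecam1, the adhesion molecule CD31 (chromosome 11, 106654217 to 106750628, minus strand), was at 65.3, 75.4, 80.01, 80.03 and 71.99 CPM in knockouts 1 to 5, against 67.97, 73.7, 66.6, 60.4 and 68.5 CPM in controls 1 to 5. The 2 groups overlapped and Pecam1 was not called (log2 fold change 0.14, SE 0.07, edgeR adjusted p = 0.115).

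Eng, the co-receptor endoglin for ligands of the BMP and TGF-beta family (chromosome 2, 32646595 to 32682669, plus strand), differed most among the surface genes. It was at 42.7, 38.6, 39.9, 33.5 and 41.8 CPM in knockouts 1 to 5, against 13.1, 19.4, 19.1, 27.6 and 20.1 CPM in controls 1 to 5. Control 1 was the lowest control and control 4 the highest, and all knockouts were above both (log2 fold change 0.98, SE 0.15, edgeR adjusted p = 0.00035). The difference was 0.28 to 1.35 within litters, smallest in litter C. Ecscr, a surface regulator of endothelial chemotaxis and apoptosis (chromosome 18, 35713086 to 35722356, minus strand), was at 9.42, 10.2, 10.1, 8.96 and 10.03 CPM in knockouts 1 to 5, against 6.44, 6.76, 8.496, 6.72 and 6.21 CPM in controls 1 to 5. The lowest knockout was just above control 3, the highest control (log2 fold change 0.49, SE 0.10, edgeR adjusted p = 0.00197). Emcn, the sialomucin endomucin of capillaries and veins (chromosome 3, 137341067 to 137432185, plus strand), was at 22.8, 25.96, 26.7, 21.9 and 25.2 CPM in knockouts 1 to 5, against 19.5, 19.5, 18.4, 20.2 and 21.3 CPM in controls 1 to 5. The groups did not overlap (log2 fold change 0.31, SE 0.07, edgeR adjusted p = 0.00429).

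Rises were also called for Cldn5, the claudin of endothelial tight junctions (10.2 ± 0.498 CPM in knockouts and 7.81 ± 0.986 CPM in controls, SD, n = 5 each; log2 fold change 0.38, SE 0.10, edgeR adjusted p = 0.00898), and Mmrn2, a matrix protein that binds CD93 and CLEC14A (12.8 ± 0.734 CPM in knockouts and 10.2 ± 1.31 CPM in controls; log2 fold change 0.32, SE 0.09, edgeR adjusted p = 0.0197). Clec14a, an endothelial lectin-like receptor, was called with overlapping groups (14.8 ± 2.58 CPM in knockouts and 11.6 ± 1.34 CPM in controls; log2 fold change 0.35, SE 0.12, edgeR adjusted p = 0.0433), as was Esam, a junction adhesion molecule (14.8 ± 1.28 CPM in knockouts and 12.7 ± 0.895 CPM in controls; log2 fold change 0.22, SE 0.08, edgeR adjusted p = 0.0463). The call of Clec14a was lost in 13 of 24 alternatives, among them without knockout 2 or 3, without control 1, 2, 4 or 5 and against the controls without Cre. That of Esam was lost in 16 of 24, among them without knockout 1, 2 or 3, without control 1, 2, 3 or 4 and with the litter as a block (0.22, edgeR adjusted p = 0.0765), where that of Plvap, the protein of fenestral diaphragms, was gained (0.28, edgeR adjusted p = 0.0483). Without the block Plvap was at 29.4 ± 3.24 CPM in knockouts and 24.2 ± 3.86 CPM in controls and was not called (log2 fold change 0.28, SE 0.11, edgeR adjusted p = 0.0695). The other 4 surface genes lay between -0.12 and 0.07 on the log2 scale and were not called. They are the sialomucin Cd34 (46.99 and 51.1 CPM in knockouts and controls), the adhesion molecule Icam2 (6.57 and 6.54 CPM), the roundabout receptor Robo4 (12.8 and 12.2 CPM) and the receptor Cd93 (37.8 and 36.1 CPM).

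Among 7 receptors, 4 were called higher and 3 were not, with a median log2 fold change of 0.29. Aplnr, the receptor of apelin, which is found in veins and sprouting vessels (chromosome 2, 85136225 to 85139923, plus strand), was at 61.1, 67.8, 65.2, 82.3 and 59.7 CPM in knockouts 1 to 5, against 30.4, 29.5, 34.9, 35.6 and 38.3 CPM in controls 1 to 5. The knockout mean was 1.99-fold the control mean and the groups were well apart (log2 fold change 0.99, SE 0.10, edgeR adjusted p = 1.1e-05, 0.64 to 1.21 within litters). Tek, the angiopoietin receptor TIE2 (chromosome 4, 94739289 to 94874976, plus strand), was at 30.4, 32.3, 30.1, 27.8 and 20.6 CPM in knockouts 1 to 5, against 18.4, 16.8, 23.5, 16.5 and 16.3 CPM in controls 1 to 5. Knockout 5 was below control 3 and the other 4 knockouts were above every control (log2 fold change 0.62, SE 0.13, edgeR adjusted p = 0.0027). Tie1, the partner of TEK (chromosome 4, 118471191 to 118490061, minus strand), was at 30.3, 30.2, 33.6, 28.2 and 25.9 CPM in knockouts 1 to 5, against 18.7, 23.1, 25.6, 20.04 and 24.7 CPM in controls 1 to 5. Its groups did not overlap, by a narrow margin between knockout 5 and control 3 (log2 fold change 0.40, SE 0.10, edgeR adjusted p = 0.00651).

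Kdr, the main signalling receptor of VEGFA (chromosome 5, 75932827 to 75978458, minus strand), was at 58.1, 58.4, 68.2, 59.9 and 61.1 CPM in knockouts 1 to 5, against 46.9, 48.6, 52.04, 46.8 and 59.3 CPM in controls 1 to 5. Control 5 was above the 2 lowest knockouts, and the difference was called at 1.21-fold (log2 fold change 0.27, SE 0.07, edgeR adjusted p = 0.012, 0.04 to 0.39 within litters). The other VEGF receptors were not called. Flt1, which binds VEGFA tightly and signals weakly, was at 23.1 ± 2.64 CPM in knockouts and 21.8 ± 4.98 CPM in controls (SD, n = 5 each; log2 fold change 0.09, SE 0.15, edgeR adjusted p = 0.705). Flt4, the receptor of VEGFC and VEGFD, was at 17.5 ± 1.07 CPM in knockouts and 14.3 ± 2.82 CPM in controls (log2 fold change 0.29, SE 0.12, edgeR adjusted p = 0.0905). Control 1 was the lowest of all 10 libraries in both Flt1 (14.2 CPM) and Flt4 (9.901 CPM). Ramp2, which pairs with the receptor of adrenomedullin, was at 11.7 ± 1.96 CPM in knockouts and 11.03 ± 1.65 CPM in controls (log2 fold change 0.09, SE 0.13, edgeR adjusted p = 0.659).

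The 6 secreted products split, with 3 called higher and 3 called lower. Vegfa, the growth factor that starts vessel growth (chromosome 17, 46016993 to 46032369, minus strand), was at 46.4, 48.2, 52.5, 51.5 and 56.6 CPM in knockouts 1 to 5, against 74.1, 72.8, 84.4, 72.7 and 75.8 CPM in controls 1 to 5. Each knockout was below each control, and the level fell to 51.02 CPM in knockouts, against 75.97 CPM in controls (log2 fold change -0.57, SE 0.06, edgeR adjusted p = 2.7e-05, -0.68 to -0.42 within litters). Apln, the peptide ligand of APLNR that tip cells of sprouts make (chromosome X, 48025146 to 48034853, minus strand), was at 6.03, 5.56, 5.49, 6.33 and 6.17 CPM in knockouts 1 to 5, against 10.3, 10.2, 9.48, 12.7 and 9.06 CPM in controls 1 to 5. The groups were far apart (log2 fold change -0.81, SE 0.10, edgeR adjusted p = 8.7e-05, -0.997 to -0.55 within litters). Esm1, a proteoglycan that sprouting tip cells secrete, was low throughout. Its knockout libraries held 0.449, 0.802, 0.573, 0.806 and 1.25 CPM and its control libraries 4.78, 1.49, 1.43, 1.19 and 2.204 CPM (log2 fold change -1.50, SE 0.40, edgeR adjusted p = 0.0119). Control 1 stood far above the other controls, knockout 5 overlapped control 4, and the call was lost without litter A (-0.86, edgeR adjusted p = 0.129) and with the 3 controls without Cre only (-0.81, edgeR adjusted p = 0.0734).

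Angpt2 (chromosome 8, 18690263 to 18741562, minus strand), the angiopoietin made by endothelium, showed the opposite direction to Vegfa. It was at 8.27, 7.75, 6.31, 5.297 and 5.57 CPM in knockouts 1 to 5, against 1.796, 1.69, 1.41, 1.84 and 2.34 CPM in controls 1 to 5. The lowest knockout held more than 2 times the highest control (log2 fold change 1.87, SE 0.17, edgeR adjusted p = 6.6e-06), and the difference was 1.23 to 2.17 within litters. Egfl7, a matrix-bound protein of endothelium whose gene hosts miR-126 (chromosome 2, 26580014 to 26593120, plus strand), was at 30.9, 36.3, 31.6, 30.5 and 29.3 CPM in knockouts 1 to 5, against 23.9, 21.7, 23.2, 25.3 and 24.6 CPM in controls 1 to 5. All knockouts were above all controls (log2 fold change 0.42, SE 0.07, edgeR adjusted p = 0.000501). Vwf, the adhesive glycoprotein that endothelium and megakaryocytes store (chromosome 6, 125546774 to 125686679, plus strand), was at 18.3, 13.6, 24.3, 13.2 and 10.6 CPM in knockouts 1 to 5, against 5.65, 3.32, 14.8, 9.54 and 4.83 CPM in controls 1 to 5. The spread was wide in both groups, control 3 was above 3 knockouts, and the call (log2 fold change 1.06, SE 0.36, edgeR adjusted p = 0.0372) was lost in 10 of 24 alternatives, such as without knockout 3 (0.86, edgeR adjusted p = 0.0949). In the same libraries edgeR, DESeq2 and limma called 0 of 8 markers of megakaryocytes and platelets, and 1 was higher and 0 lower at an unadjusted p below 0.05. Of all genes, edgeR called 18.1% higher and 17.1% lower, and over the alternatives up to 1 of the 8 markers was called higher. The part of megakaryocytes in the level of Vwf was not tested. Pf4, the platelet chemokine, was at 8.503 and 7.197 CPM in knockouts and controls.

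**Figure D2:**
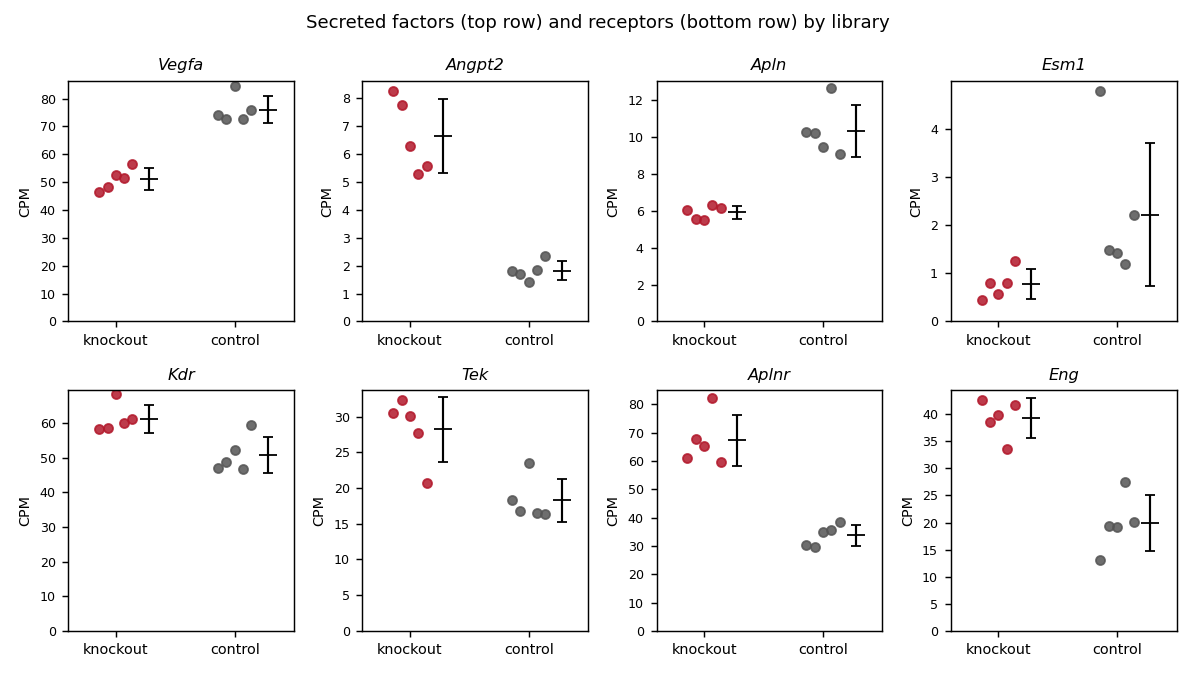
Level in CPM of the secreted products Vegfa, Angpt2, Apln and Esm1 (top row) and the receptors Kdr, Tek, Aplnr and Eng (bottom row), 1 point per library, knockouts in red left of controls in grey, with mean and SD beside the points (n = 5 each). Vegfa and Apln are lower in every knockout and Angpt2, Aplnr and Eng are higher in every knockout than in any control.

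Ratios of a ligand to its receptor or to another ligand were taken within a library, in CPM per kilobase of exon. The pairs were chosen after the levels were seen, and the ratios carry no test. The ratio of Vegfa to Kdr was 1.68, 1.74, 1.62, 1.81 and 1.95 in knockouts 1 to 5, against 3.33, 3.16, 3.42, 3.28 and 2.69 in controls 1 to 5. The ratio of Apln to Aplnr was 0.116, 0.0962, 0.0989, 0.0904 and 0.121 in knockouts 1 to 5, against 0.397, 0.408, 0.319, 0.418 and 0.278 in controls 1 to 5. Both ratios were lower in every knockout than in every control. Angpt2 over Angpt1 went the other way, at 1.097, 0.967, 0.817, 0.836 and 0.639 in knockouts 1 to 5, against 0.203, 0.177, 0.157, 0.203 and 0.271 in controls 1 to 5. In knockouts 1 and 2 the 2 angiopoietins were near 1 to 1, and in controls Angpt2 was at most 0.271 of Angpt1. Per unit of its receptor Tek, Angpt2 was 0.302 ± 0.04598 in knockouts and 0.131 ± 0.0381 in controls (SD, n = 5 each). In a bulk sample all these ratios also move with the mix of cells, whose part was not tested.

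**Figure D3:**
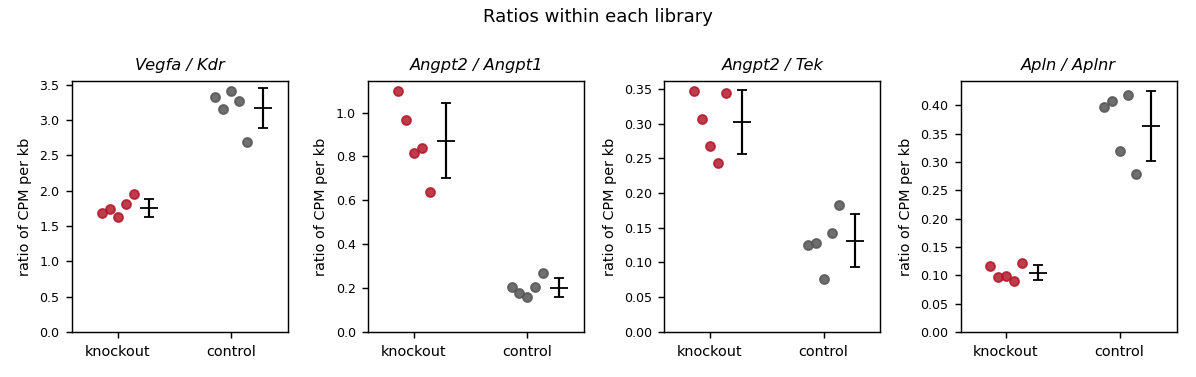
Ratios of 2 genes within each library, each gene in CPM per kilobase of exon, 1 point per library, knockouts in red left of controls in grey, with mean and SD (n = 5 each). The ratio of Vegfa to Kdr and of Apln to Aplnr is lower, and that of Angpt2 to Angpt1 and to Tek higher, in all 5 knockouts.

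Among 7 transcription factors, 2 were called higher, 1 was called lower and 4 were not called. Fli1, an ETS factor of endothelium and megakaryocytes (chromosome 9, 32422204 to 32542861, minus strand), was at 19.5, 17.6, 20.5, 22.1 and 24.5 CPM in knockouts 1 to 5, against 53.3, 55.9, 50.5, 40.4 and 46.03 CPM in controls 1 to 5. The level was 2.36-fold lower in knockouts with a wide gap between the groups (log2 fold change -1.24, SE 0.10, edgeR adjusted p = 3.1e-06, -1.56 to -0.87 within litters). Lyl1, a basic helix-loop-helix factor close to TAL1 (chromosome 8, 84701457 to 84704715, plus strand), was at 5.16, 6.22, 5.34, 6.49 and 5.02 CPM in knockouts 1 to 5, against 2.15, 3.27, 3.901, 3.32 and 3.35 CPM in controls 1 to 5. The groups did not overlap (log2 fold change 0.82, SE 0.15, edgeR adjusted p = 0.00135). Tal1, which drives blood and endothelial fate and is also high in erythroid cells (chromosome 4, 115056426 to 115071755, plus strand), was at 14.1 ± 3.43 CPM in knockouts and 8.52 ± 1.81 CPM in controls (SD, n = 5 each; log2 fold change 0.73, SE 0.18, edgeR adjusted p = 0.00708). Knockout 5, at 10.05 CPM, was below control 5, at 10.97 CPM, and litter D had the negative difference (-0.13, against up to 1.28 in litter C). In the same libraries 10 of 12 other erythroid markers were called higher, with a summed level of 3740 to 7881 CPM in knockouts, against 3011 to 3553 CPM in controls. Their part in the rise of Tal1 was not tested.

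The SOXF factors were not called. Sox7 was at 6.21 ± 0.595 CPM in knockouts and 7.02 ± 1.26 CPM in controls (log2 fold change -0.18, SE 0.13, edgeR adjusted p = 0.334), Sox17, known for arteries, at 4.44 ± 1.02 CPM in knockouts and 3.52 ± 1.197 CPM in controls (log2 fold change 0.34, SE 0.25, edgeR adjusted p = 0.335), and Sox18, which acts ahead of PROX1 in lymphatic fate, at 11.4 ± 0.668 CPM in knockouts and 9.97 ± 1.43 CPM in controls (SD, n = 5 each; log2 fold change 0.19, SE 0.10, edgeR adjusted p = 0.163). Exon bases of Sox17 are shared to 16.8% with a gene read from the other strand, and counts without strand cannot separate the pair. Prox1, the factor that sets lymphatic identity (chromosome 1, 190118035 to 190170714, minus strand), was at 3.36, 6.07, 3.59, 5.37 and 5.504 CPM in knockouts 1 to 5, against 6.05, 6.45, 6.98, 4.86 and 7.29 CPM in controls 1 to 5. Knockouts 1 and 3 were the lowest libraries, the other knockouts lay among the controls, and Prox1 was not called (log2 fold change -0.40, SE 0.18, edgeR adjusted p = 0.103).

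Of the 3 intracellular genes, Rasip1, a Ras-interacting protein needed for the vessel lumen (chromosome 7, 45627488 to 45639093, plus strand), was called higher. It was at 21.6, 20.9, 22.9, 20.9 and 20.4 CPM in knockouts 1 to 5, against 12.2, 13.5, 16.9, 15.1 and 18.8 CPM in controls 1 to 5. Its knockouts lay close together and above all controls (log2 fold change 0.48, SE 0.10, edgeR adjusted p = 0.00339). Other genes share 22.5% of its exon bases on the opposite strand and 20.4% on the same strand. Arhgef15, a guanine nucleotide exchange factor found in endothelium, was at 19.3 ± 4.94 CPM in knockouts and 14.2 ± 2.76 CPM in controls and was not called (log2 fold change 0.44, SE 0.17, edgeR adjusted p = 0.064), but was called with the litter as a block (0.43, edgeR adjusted p = 0.0116). Nos3, the endothelial nitric oxide synthase, was at 6.18 ± 0.2698 CPM in knockouts and 5.72 ± 0.866 CPM in controls (SD, n = 5 each; log2 fold change 0.11, SE 0.11, edgeR adjusted p = 0.482), and 32.3% of its exon bases are shared with genes on the opposite strand. For Ramp2 and Egfl7 the shares on the same strand are 33.4% and 9.41%.

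**Figure D4:**
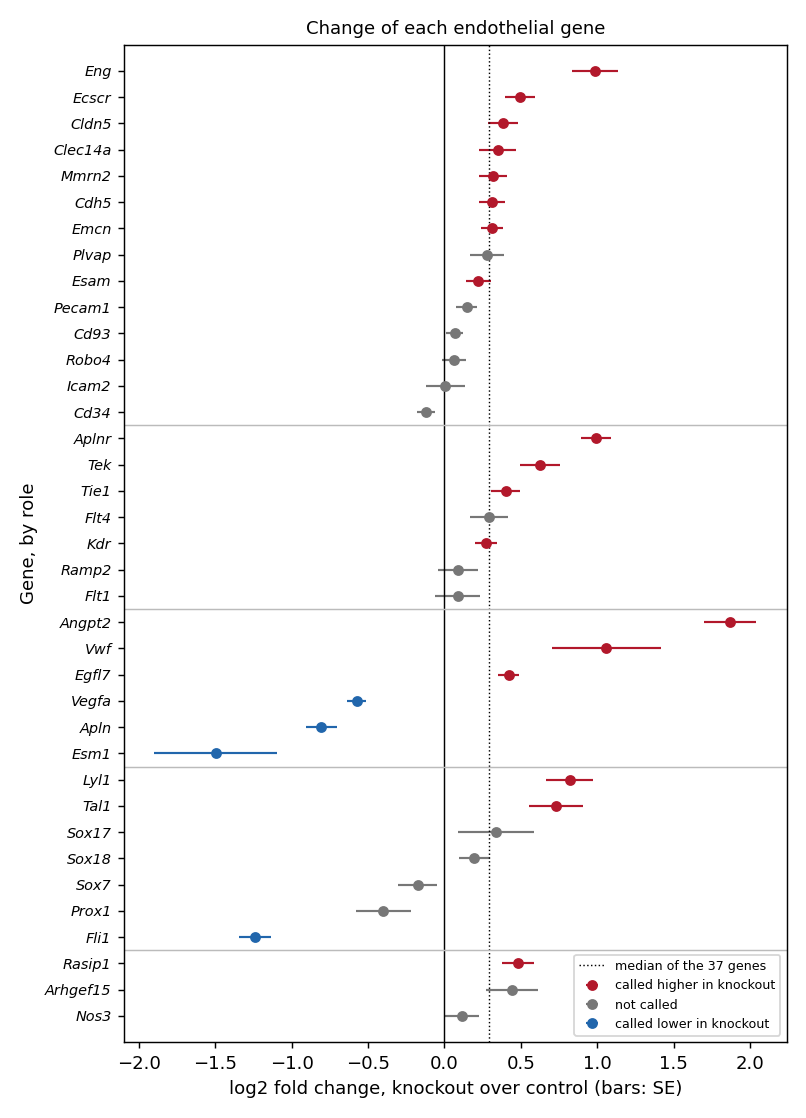
Log2 fold change, knockout over control, of each of the 37 genes with its SE (n = 5 each), by role from top to bottom: surface and junction, receptors, secreted, transcription factors and intracellular. Red points are called higher, blue points lower and grey points not called. The dotted line is the median of the 37, at 0.29, and the blue points are Vegfa, Apln, Esm1 and Fli1.

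Per kilobase of exon, the most abundant of the 37 in controls were Vegfa, Cdh5 and Fli1. The level of Vegfa was 11.9 in knockouts and 17.7 in controls CPM per kilobase, that of Cdh5 was 19.4 in knockouts and 15.6 in controls, and that of Fli1 was 5.98 in knockouts and 14.1 in controls. Vegfa thus stood first in controls. In knockouts Cdh5, Aplnr (18.2), Plvap (14.8) and Pecam1 (11.97) stood above it. The lowest in controls were Vwf (0.995 in knockouts and 0.475 in controls), Angpt2 (1.799 in knockouts and 0.492 in controls), Sox17 (0.9302 in knockouts and 0.738 in controls), Prox1 (0.5696 in knockouts and 0.754 in controls) and Esm1 (0.3701 in knockouts and 1.06 in controls). Esm1 had the fewest counts of any of the 37 genes in a library, 18, and the next fewest was 69, for Angpt2.

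Levels were also set against Cdh5 in the same library, as a description of how the genes moved relative to 1 endothelial transcript. Cdh5 itself was 1.24-fold higher in knockouts, which lowers ratios to it there. Of the other 36 genes, 3 had a ratio to Cdh5 higher in every knockout than in every control, against 3.76% of all genes. A lower ratio in every knockout was found for 7, a smaller share than the 26.3% of all genes. Angpt2, Aplnr and Lyl1 were the higher ones, with mean log2 ratios 1.52, 0.67 and 0.51 above those of controls. The lower ones were Esm1 (-1.66), Fli1 (-1.56), Apln (-1.11), Vegfa (-0.90), Prox1 (-0.75), Sox7 (-0.48) and Robo4 (-0.26). By their own levels, Prox1, Sox7 and Robo4 were not called. The ratios of the other 26 genes overlapped between the groups.

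The libraries differed in this gene group also within the controls. Control 1 was the lowest of the 5 controls in 16 of the 37 genes, where it was the lowest in 20.6% of all genes, and control 5 was the highest in 18, against 23.5% of all genes. Control 1 was the only control labelled with Prx1Cre without a question mark, and 1 of the libraries with high Xist. Relative to the control means, the median of the 37 genes on the log2 scale was 0.21, 0.30, 0.38, 0.28 and 0.19 in knockouts 1 to 5, against -0.15, -0.02, 0.10, -0.02 and 0.16 in controls 1 to 5. Knockout 5 and control 5, both of litter D, thus lay close together by this median. Without control 1, 15 of the 37 were called higher and 4 lower, where 15.8% and 15.3% of all genes were. Against the 3 controls without Cre only, 15 were higher and 3 lower (14.3% and 12.8% of all genes). Without control 1 and knockout 3, the libraries with high Xist, 13 were higher and 4 lower (14.3% and 14.0%).

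Litter A supplied 4 of the 10 embryos, and most of the calls were lost when it was left out, which also leaves fewer embryos. Without it, at 3 knockouts and 3 controls, 5 of the 37 were called higher and 3 lower, against 9.73% and 9.83% of all genes. The 5 were Eng, Aplnr, Angpt2, Egfl7 and Lyl1, and the 3 were Vegfa, Apln and Fli1. These 8 were also the genes called under all 24 alternatives. The other 14 calls were lost, those of Cdh5, Tek and Kdr among them (0.26, edgeR adjusted p = 0.103 for Kdr). In litter D the differences of Cdh5 (0.03), Kdr (0.04) and Tie1 (0.07) were the smallest of the 4 litters, while that of Ecscr (0.69) was the largest. The control of litter D is control 5, whose Cre label is in doubt. Cxxc1 was at 89.5 CPM in control 5, against 91.4 to 105.8 CPM in the other controls and 73.1 to 76.2 CPM in knockouts. Whether the genotype of control 5 bears on these differences was not tested. The median over the 37 genes was 0.24 without litter A.

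Other genes of the pathways were taken from lists written with earlier results of these data known, and their counts stand against 18.1% of all genes called higher and 17.1% lower. Of 7 VEGF and angiopoietin ligands, 2 were called higher, 2 lower and 3 not. Beside Vegfa and Angpt2, Vegfd, a ligand of FLT4, was higher (14.7 ± 1.84 CPM in knockouts and 9.11 ± 1.88 CPM in controls, SD, n = 5 each; log2 fold change 0.69, SE 0.14, edgeR adjusted p = 0.00187) and Angpt1 lower (10.8 ± 1.22 CPM in knockouts and 12.7 ± 0.489 CPM in controls; log2 fold change -0.23, SE 0.09, edgeR adjusted p = 0.0493). The call of Angpt1 was lost with the litter as a block (-0.24, edgeR adjusted p = 0.0543) and in 19 of 24 alternatives in all. Of its exon bases, 14.2% also lie in a gene of the other strand. Of 8 VEGF receptors, co-receptors and TIE receptors, 4 were called higher and 4 not. Nrp1, the co-receptor neuropilin that KDR uses, was at 115 ± 6.95 CPM in knockouts and 80.8 ± 5.66 CPM in controls (log2 fold change 0.50, SE 0.06, edgeR adjusted p = 3.9e-05), and the other 3 called were Tek, Tie1 and Kdr. The part of cells other than endothelium in the level of Nrp1 was not tested.

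Of 12 arterial genes, 2 were called higher (16.7%), 3 lower (25%) and 7 not, shares near those of all genes, with a median log2 fold change of 0.06. Over the alternatives the higher count was 2 to 4, with 4 without control 3. The lower count was 1 to 3, with 1 without litter A, without litter B and against the controls without Cre, and 2 without control 1 or control 3. Dll4, the Notch ligand of arteries and tip cells (chromosome 2, 119325784 to 119335962, plus strand; 5.56% of its exon bases also in a gene of the other strand), was at 3.04, 2.96, 2.81, 3.48 and 3.77 CPM in knockouts 1 to 5, against 5.87, 5.62, 9.19, 5.47 and 5.98 CPM in controls 1 to 5. Control 3 stood above the other controls and all knockouts were below all controls (log2 fold change -0.999, SE 0.16, edgeR adjusted p = 0.000453). Gja4, the connexin 37 of arteries, was at 2.91 ± 0.229 CPM in knockouts and 4.36 ± 0.861 CPM in controls (log2 fold change -0.58, SE 0.15, edgeR adjusted p = 0.00981), while Cxcr4, the receptor of CXCL12, was at 14.001 ± 2.69 CPM in knockouts and 6.36 ± 0.954 CPM in controls (log2 fold change 1.14, SE 0.15, edgeR adjusted p = 9.6e-05) and the Notch ligand Jag1 at 106 ± 17.005 CPM in knockouts and 73.7 ± 6.89 CPM in controls (log2 fold change 0.53, SE 0.10, edgeR adjusted p = 0.0017). Jag1 and Cxcr4 are also used by other cells of the bud.

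Of 5 venous genes, 2 were higher, 2 lower and 1 not called. Aplnr and Emcn were the higher ones. Nr2f2, the factor COUP-TFII of veins and of mesenchyme, was at 38.98 ± 3.37 CPM in knockouts and 86.6 ± 17.2 CPM in controls (log2 fold change -1.15, SE 0.13, edgeR adjusted p = 3.4e-05) and Ephb4, the ephrin receptor of veins, at 174 ± 4.73 CPM in knockouts and 234 ± 21.3 CPM in controls (SD, n = 5 each; log2 fold change -0.43, SE 0.06, edgeR adjusted p = 0.000149). Per kilobase of exon, Ephb4 was at 50.5 CPM in controls, where Cdh5 was at 15.6 CPM. The part of cells other than venous endothelium in the level of Ephb4 was not tested. Of 9 lymphatic genes, 1 was higher, 2 lower and 6 not called. Lyve1, which lymphatic endothelium and macrophages carry, was near the limit of detection at 0.431 ± 0.0931 CPM in knockouts and 0.157 ± 0.0493 CPM in controls (log2 fold change 1.44, SE 0.28, edgeR adjusted p = 0.00178). Ccbe1, which helps to activate VEGFC, was lower (-0.84, SE 0.15), as was the forkhead factor Foxc2 (-0.95, SE 0.20, edgeR adjusted p = 0.00113 and 0.00314).

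The 12 tip cell genes divided into 5 called higher, 3 lower and 4 not called. The higher ones included Angpt2, Cxcr4 and the laminin Lamb1 (log2 fold change 0.53, SE 0.08, edgeR adjusted p = 0.000257), and the lower ones were Apln, Esm1 and Dll4. ETS factors were mostly lower: of 6 genes that passed the filter on low counts, 4 were called lower and 2 higher, the second being Tal1, a helix-loop-helix factor placed on that list. Erg (chromosome 16, 95359169 to 95586593, minus strand), the ETS factor closest to FLI1, which forming cartilage also uses, was at 21.9, 18.5, 21.96, 18.3 and 21.9 CPM in knockouts 1 to 5, against 32.5, 37.8, 39.9, 28.9 and 32.3 CPM in controls 1 to 5. The groups did not overlap (log2 fold change -0.74, SE 0.10, edgeR adjusted p = 9.3e-05). Ets1 was lower (-0.39, SE 0.08) and Elk3 higher (0.25, SE 0.04), with edgeR adjusted p = 0.00312 and 0.000441. Etv2, which acts at the start of endothelial fate, held 24 counts over all knockouts and 20 over all controls and did not pass the filter.

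**Figure D5:**
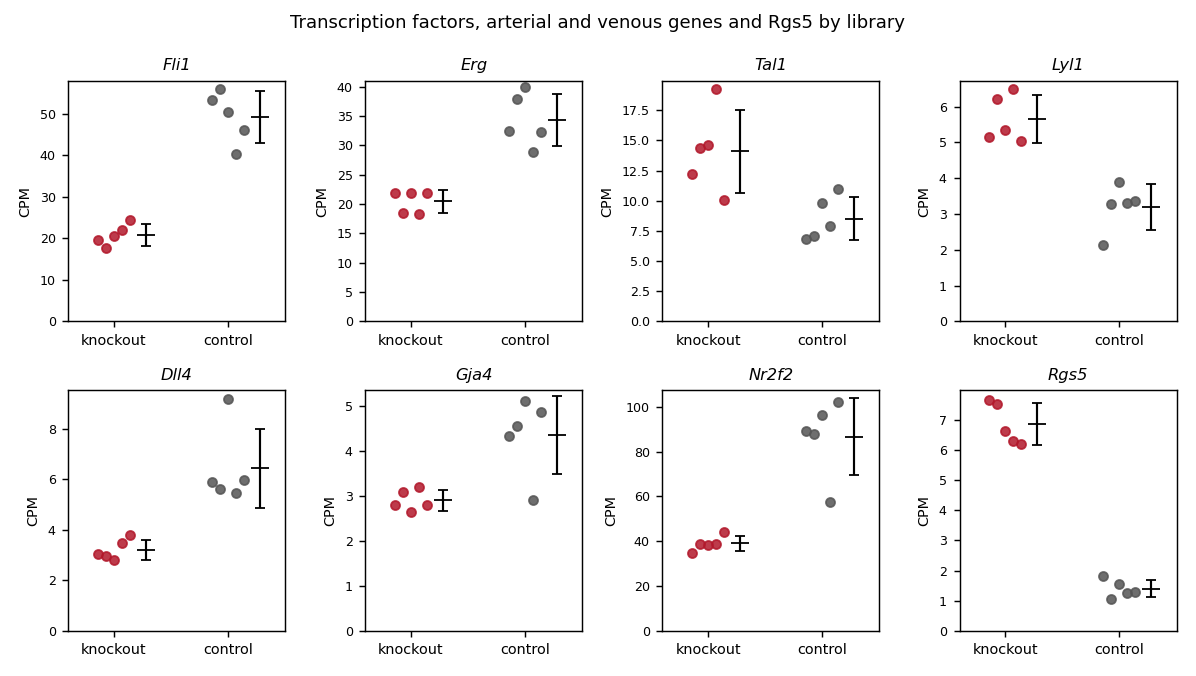
Level in CPM of the transcription factors Fli1, Erg, Tal1 and Lyl1 (top row), the arterial genes Dll4 and Gja4, the venous factor Nr2f2 and the pericyte gene Rgs5 (bottom row), 1 point per library, knockouts in red left of controls in grey, with mean and SD (n = 5 each). Fli1, Erg, Dll4 and Nr2f2 are lower, and Lyl1 and Rgs5 higher, in every knockout than in any control.

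Of 11 other endothelial transcription factors, 3 were higher, 4 lower and 4 not called. Lmo2, a partner of TAL1 in endothelium and blood, was at 54.9 ± 8.84 CPM in knockouts and 32.96 ± 4.73 CPM in controls (log2 fold change 0.74, SE 0.12, edgeR adjusted p = 0.000568). The lower ones were Foxc1 (-2.54, SE 0.20), Meox2 (-1.41, SE 0.10), Tcf4 (-0.72, SE 0.09) and Foxc2, all of which limb mesenchyme also uses, with edgeR adjusted p = 2.0e-06, 9.2e-07 and 5.7e-05 for the first 3. Markers of limb mesenchyme moved with them: 7 of 12 were called lower and 5 were not called, with a summed level of 1432 to 1636 CPM in knockouts, against 2375 to 2531 CPM in controls. Pdgfra, a receptor of mesenchyme, was at 135 ± 5.27 CPM in knockouts and 493 ± 45.4 CPM in controls and Prrx1 at 297 ± 15.9 CPM in knockouts and 578 ± 25.6 CPM in controls (SD, n = 5 each; edgeR adjusted p = 2.6e-09 and 4.9e-08). How far the mesenchyme sets the levels of Fli1, Erg, Vegfa and Nr2f2, which mesenchyme or early cartilage can also transcribe, was not tested.

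Of 10 mural cell genes that passed the filter, 2 were called higher (20%), 3 lower (30%) and 5 not. Over the alternatives the higher count was 1 to 4, with 1 without control 1 or control 4, among others, and 4 without control 5 or with the litter as a block, and the lower count was 2 to 3. Rgs5, a pericyte gene (chromosome 1, 169655501 to 169695813, plus strand), was at 7.65, 7.54, 6.64, 6.29 and 6.21 CPM in knockouts 1 to 5, against 1.82, 1.07, 1.55, 1.25 and 1.304 CPM in controls 1 to 5. The lowest knockout was far above the highest control (log2 fold change 2.29, SE 0.15, edgeR adjusted p = 4.8e-07). Kcnj8 and Higd1b of the same list did not pass the filter. Kcnj8 held 14 counts over all knockouts and 20 over all controls, and Higd1b held 5 and 7. Cspg4, the proteoglycan NG2, was lower (-0.77, SE 0.13), as were Tagln (-0.74, SE 0.14) and Pdgfrb, the receptor through which pericytes are recruited (-0.25, SE 0.07), with edgeR adjusted p = 0.000505, 0.00136 and 0.0185. Pericytes and mesenchyme share these 3 genes, and 67.9% of the exon bases of Tagln also lie in genes of the other strand. Of 10 genes of the vascular basement membrane, 5 were higher and 5 not called. The laminin genes Lama5 (0.84, SE 0.12), Lamb1 (0.53, SE 0.08) and Lamc1 (0.40, SE 0.06) and the perlecan gene Hspg2 (0.49, SE 0.09) rose, with edgeR adjusted p = 0.000156, 0.000257, 0.000175 and 0.00112. Limb ectoderm also makes laminins, and 8 of its 12 markers were called higher, such as Krt5 (219.7 and 121 CPM in knockouts and controls), while 4 were not called. The part of ectoderm in the laminin levels was not tested.

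Vegfa is also a target of the hypoxia response. Of 14 other genes of that response, 1 was called higher (7.14%), 1 lower (7.14%) and 12 were not called, with a median log2 fold change of -0.06, where 35.2% of all genes were called either way. The part of hypoxia in the level of Vegfa was not tested. Bnip3, a mitophagy receptor, was lower (26.5 ± 3.68 CPM in knockouts and 38.7 ± 2.26 CPM in controls; log2 fold change -0.55, SE 0.09, edgeR adjusted p = 0.000437) and Egln3, an oxygen-sensing hydroxylase, higher (6.75 ± 0.664 CPM in knockouts and 5.46 ± 0.684 CPM in controls; log2 fold change 0.31, SE 0.11, edgeR adjusted p = 0.0483). The call of Egln3 was lost in 14 of 24 alternatives. Of the exon bases of Bnip3, 22.3% also lie in a gene of the other strand.

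Markers of macrophages and of erythroid cells rose in the same libraries. All 12 macrophage markers were called higher, with a summed level of 232 to 269 CPM in knockouts, against 63.03 to 77.3 CPM in controls, and none of them was at 0 in all libraries. Csf1r, the receptor macrophages need, was at 49.7 and 12.8 CPM in knockouts and controls, with 15.1% of its exon bases in a gene of the other strand. The adhesion receptor Adgre1 had 17.6 and 2.84 CPM. Of 13 erythroid markers, Tal1 among them, 11 were called higher, with a summed level of 3750 to 7900 CPM in knockouts, against 3018 to 3561 CPM in controls, and none was at 0. Globin genes are near-identical copies, so their counts may be split between them. The 8 megakaryocyte and platelet markers summed to 26.2 to 32.8 CPM in knockouts, against 23.01 to 31.2 CPM in controls. Macrophages and other blood cells also transcribe Pecam1, Eng, Fli1, Lyl1 and Tal1, and their part in the levels of these genes was not tested.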

How the data were processed

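The authors deposited 2 tables for the 10 libraries. The first holds the authors' estimated counts per Ensembl gene as deposited. Of its values above 0, 0.0592% were whole within 1e-06, so they were rounded. The second, named as FPKM by the authors, holds a deposited signal: each value was a rounded count divided by 1 factor per library (100.0% of values within 0.01 of a whole count after rescaling). The tools listed, per the submitters' processing notes and without a role, are DESeq2 1.16.1, Salmon 0.8.2 and R 3.4.1, with the build mm10. The strand setting, like the step from transcripts to genes, was not given in the sources used here. Symbols, coordinates and exon lengths come from GENCODE release M21 (GRCm38, the assembly of mm10), in which 47224 IDs had a symbol and 505 had none.

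Groups were taken from the sample titles, and columns were matched by library name. Genes passed filterByExpr at a minimum count of 10 and a minimum total of 15. After TMM scaling, edgeR 4.0.16 in R 4.3.3 (glmQLFit, glmQLFTest) was run without a covariate, with Benjamini-Hochberg adjustment over 20562 genes. The SE is the absolute log2 fold change over the square root of the F statistic. Between embryos the biological coefficient of variation was 16.4% at the common dispersion. The fit was tested on simulated data. Differences within litters use log2(CPM + 0.05). Alternatives were DESeq2 1.42.0, limma 3.58.1 on log2 of the second table plus a pseudocount of 1, other scalings, no filter, blocks, somite stage and left-out libraries. A count of 3 was 0.0601 to 0.0902 CPM, a floor that covers counting error only, while SEs and p-values include the spread between embryos.

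Embryos with the same number share a litter, per the labels, so numbers pair litter mates. Their deviations from the group means correlated at -0.02 to 0.20. All pairs of libraries within a group differed by more than sampling noise (chi-square per degree of freedom 17.5 to 49.6).

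The 37 genes and all lists were chosen with earlier results of these data known, so no p is given over a list. Named by rule were Cdh5, Pecam1, Kdr, Vegfa, Prox1, Vwf and the 12 other members with the smallest adjusted p in every library, and up to 4 genes per list with the smallest adjusted p; 1 gene so named is not reported here.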

Additional observations from a re-analysis of the deposited data

Results flagged for a closer look

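In 5 of 74 groups of 5 libraries over the 37 genes, 1 library stood apart from the other 4 by a gap above 0.71 of the group's range, which chance gives in about 5% of groups. Control 3 was the high library in 3 of them. Ecscr was at 8.50 CPM there and at 6.21 to 6.76 CPM in the other controls, Tek at 23.5 CPM and 16.3 to 18.4 CPM, and Vegfa at 84.4 CPM and 72.7 to 75.8 CPM. In control 1, Esm1 was at 4.78 CPM, against 1.19 to 2.20 CPM in the other controls. In knockout 5, Robo4 was at 11.3 CPM, against 12.9 to 13.3 CPM in the other knockouts.

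Among the other genes named by rule, 7 groups were flagged in the same way. Knockouts that stood apart were knockout 4 in Lamc1 (187.7 CPM), knockout 5 in Adgre1 (20.4 CPM), knockout 2 in Pdgfra (125.9 CPM) and knockout 1 in Trp63 (72.3 CPM). The controls were control 3 in Dll4 (9.19 CPM), control 5 in Egln3 (6.68 CPM) and control 4 in Pdgfra (412.6 CPM).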

How the results depend on the processing

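Of 24 alternatives, 8 of the 22 called genes kept their call in all, with their direction: Eng, Aplnr, Angpt2, Egfl7, Lyl1, Vegfa, Apln and Fli1. Leaving out litter A, 3 against 3, called 5 of the 37 genes higher and 3 lower, which are these 8, and 2002 genes higher and 2021 lower over all genes (9.73% and 9.83%). It has fewer samples, and the median of the 37 genes was then 0.24. Leaving out 1 replicate gave 15 to 19 members higher and 4 lower, and 3183 to 3600 genes higher and 3096 to 3428 lower. With the replicate block by number, 19 members were called higher and 4 lower (3491 and 3359 of all genes), and with the block by litter 19 and 4. The blocks changed the calls of Esam, Plvap, Arhgef15 and Angpt1 among the members and genes named. Without the libraries with high Xist, 13 were higher and 4 lower, and with the controls without Cre only 15 and 3. Scaling by library size only called 22 higher and 4 lower, with a median of 0.05 over all genes and 0.34 over the 37. Scaling of RLE gave 18 and 4.
Signs turned in genes near 0 that were not called. Icam2 was at -0.00447 with somite stage as a term, -0.0174 without litter A, -0.0596 without litter B and -0.117 without the libraries with high Xist, and at -0.0598 to 0.107 without 1 replicate. Flt1 was at -0.0146 without litter A, -0.07504 without the libraries with high Xist and -0.0362 to 0.158 without 1 replicate. Ramp2 was at -0.09599 without litter A and -0.00929 to 0.158 without 1 replicate, and Robo4 at -0.0174 without litter A. Of 816 counts of called genes in the lists under these alternatives, 64 moved by over 1.5 times, or to or from 0. In small counts a change of 1 gene can be such a move. The cause was not tested in any case.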
